A study of Mus musculus with 15 samples.

Results

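The genes described are 37 components of the lysosome, taken from the table of 65964 rows by the mouse Ensembl identifiers of a fixed list of symbols. They comprise 14 hydrolases other than cathepsins, 2 activator proteins, 8 membrane and lipid transfer proteins, 2 regulators and 11 subunits of the vacuolar proton pump (V-ATPase). All 37 were found, all 37 reached 1 TPM (transcript abundance scaled to length and to a fixed library total) in at least 3 libraries, and 28 did so in each of the 15 libraries. RNA was extracted from brain of C57BL/6 mice, and every library, the untreated ones included, is labelled as a kainic acid model of temporal lobe epilepsy. Kainic acid (KA) is an agonist of kainate-type glutamate receptors used to provoke seizures. The 5 groups of 3 libraries were untreated (CTRL_L), treated with KA (KA_L and KA_H) and treated with KA together with APOE (groups APOE_L and APOE_H). What L and H stand for is not stated in the labels, no untreated H group is included, and age, dose, time after KA and the nature of the APOE treatment are not given in the sources used here. Nor is it stated that each library came from its own animal: the p-values below therefore rest on the spread between libraries, which may be technical.

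Lysosomes are acidic organelles in which hydrolases break down lipids, glycans and proteins taken up by endocytosis, phagocytosis or autophagy. The V-ATPase acidifies the lumen: its V1 sector hydrolyses ATP in the cytosol and drives a ring of proteolipid subunits in the membrane sector V0, which carries protons inwards. In brain, microglia are rich in lysosomes, and inherited loss of many of these hydrolases and transporters causes storage diseases of the nervous system. TFEB, a transcription factor, is known to activate many lysosomal genes through an E-box called the CLEAR element (coordinated lysosomal expression and regulation).

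Microglia markers were high in every library, and neuron markers were at or near 0 in most. Each library held at least 1 TPM of all 14 microglia markers, and P2ry12, a purinergic receptor of microglia, ran from 878 to 9373 TPM. Of 10 neuron markers 1 passed the expression filter, their summed level did not exceed 66.8 TPM in any library, and Rbfox3, the neuronal nuclear antigen, was listed at 0 in 13 libraries. The tissue is given in the labels only as brain, and in such bulk samples fewer cells of a type and less RNA per cell cannot be told apart. Apoe, the gene the APOE groups are named for, lay between 161 and 889 TPM in CTRL_L, 1970 and 3262 TPM in KA_L, 8767 and 16636 TPM in KA_H, 0 and 0.71 TPM in APOE_L, and 6.49 and 144 TPM in APOE_H. Each APOE library thus held less Apoe transcript than any library of the other groups. The H libraries differed from the L libraries in more than 1 way. Entries at 1 TPM or more numbered 12801 to 15452 in the 6 H libraries and 9931 to 12085 in the 9 L libraries. Assembled loci without a gene name held 2.20 to 6.79% of the total in H and 6.73 to 12.1% in L. The summed level of 12 choroid plexus epithelium markers, all of which passed the filter, was 33399 to 59576 TPM in H, 57.6 to 1286 TPM in KA_L and APOE_L, and 139.5 to 39534 TPM in CTRL_L. Part of the lysosomal differences may move with these measures, which was not tested. An exact 0 in such a table can be a failed estimate, since Pgk1, a glycolytic gene every cell uses, was listed at 0 in 2 libraries, so a gene at 0 is given as listed at 0. Of the 555 member values 12 were listed at 0, in 6 members (Gaa, Gla, Neu1, Naglu, Mcoln1 and Tfeb).

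Promoter sequence from RefSeq (GRCm38.p6, matched by symbol) was at hand for 33 of the 37 genes, as windows of 300 bases from 250 before to 50 after a start site. The windows were searched for CACGTG, the core of the CLEAR element, and for its longer form TCACGTGA, which contains the core. Both read the same on either strand. The core lay in 11 of 39 member windows (28.2%), against 7.15% of all 32851 windows, and the longer form in 5 (12.8%), against 0.974%. These shares describe letters only, and a match is neither a binding site nor a cause. The stretches below are of the 5 genes with the longer form and of Lamp1, whose window held 4 cores, the most of any member. Their transcripts did not all follow the same pattern across the groups, as given further on. Each is 100 bases of the coding strand read 5′ to 3′, with CACGTG in capitals.
Lamp1, chr8:13159061-13159160, + strand: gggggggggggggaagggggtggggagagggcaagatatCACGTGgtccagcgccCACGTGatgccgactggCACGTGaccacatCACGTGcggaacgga
Mcoln1, chr8:3500419-3500518, + strand: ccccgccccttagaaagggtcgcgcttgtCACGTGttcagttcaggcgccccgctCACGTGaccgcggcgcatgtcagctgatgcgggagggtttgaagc
Gla, chrX:134601156-134601255, - strand: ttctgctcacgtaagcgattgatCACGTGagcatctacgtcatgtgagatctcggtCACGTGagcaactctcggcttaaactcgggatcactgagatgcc
Atp6v1a, chr16:44139340-44139439, - strand: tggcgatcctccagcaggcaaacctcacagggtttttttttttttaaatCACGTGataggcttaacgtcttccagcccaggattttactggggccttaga
Atp6v0d1, chr8:105566045-105566144, - strand: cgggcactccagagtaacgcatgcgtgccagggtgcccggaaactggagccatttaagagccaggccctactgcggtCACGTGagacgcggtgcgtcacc
Atp6v0e, chr17:26676316-26676415, + strand: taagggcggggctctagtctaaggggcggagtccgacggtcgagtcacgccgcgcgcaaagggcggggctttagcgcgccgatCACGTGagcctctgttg
Counted from the start site, the Lamp1 and Mcoln1 stretches end at base -1, the Gla stretch runs from -250 to -151 and that of Atp6v1a from -180 to -81. Those of Atp6v0d1 and Atp6v0e run from -80 to 20, with a core that begins at -3 and at 4. Lamp1, Mcoln1, Gla and Atp6v1a had their highest group mean in APOE_H, Atp6v0e in KA_H and Atp6v0d1 in CTRL_L. Averaged over both conditions, 4 of the 11 genes with a core and 13 of the 22 without were called higher in H than in L, in a comparison that called 10.2% of all tested rows, with median log2 fold changes of 1.94 and 1.75.

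Summed over the members of a role, the enzymes and the proton pump did not follow the same pattern across the groups. The 14 hydrolases together stood at 4640 ± 1009.8 TPM (mean ± SD, n = 3) in APOE_H and at 1686 ± 425 TPM in KA_H, against the 1452 ± 147 TPM of KA_L, 1362 ± 77.0 TPM of APOE_L and 2243 ± 1188 TPM of CTRL_L. The 11 V-ATPase subunits together stood at 5226 ± 16.0 TPM in APOE_H and 4796 ± 436 TPM in KA_H, against 1981 ± 372 TPM in KA_L, 2295 ± 115 TPM in APOE_L and 3234 ± 949 TPM in CTRL_L. The pump sum was thus high in both H groups, and the hydrolase sum was high in 1 of them. Such sums weigh abundant genes most, and single genes contrasted less. From KA_L to KA_H the fitted log2 fold change was positive in 10 of 14 hydrolases, 4 of 4 V0 subunits and 3 of 5 V1 subunits. It was positive in 52.5% of all tested rows. The medians of these roles were 1.07, 1.42 and 1.48, against 0.11 over all tested rows. Lgmn, the hydrolase gene with the highest mean level, averaged 657 TPM in KA_L and 558 TPM in KA_H. The ratio of the hydrolase sum to the pump sum was 0.278 to 0.444 in the KA_H libraries and 0.725 to 1.10 in the APOE_H libraries. In the 9 L libraries that ratio ran from 0.404 to 0.956, so it overlapped both H groups. These sums are levels of a chosen list and carry no test.

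**Figure D1:**
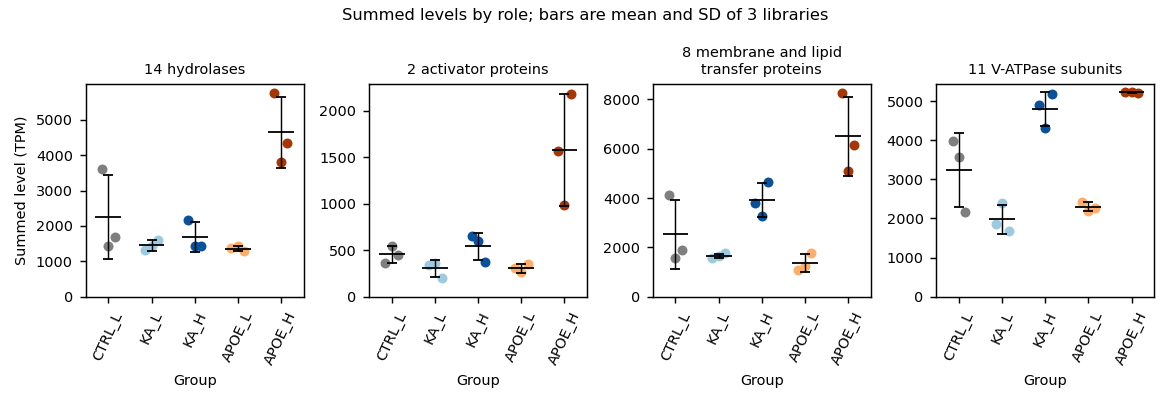
Summed level in TPM (y axis) of 4 roles of lysosomal genes in the 5 groups (x axis), with 1 point per library and bars for mean and SD of 3 libraries. The V-ATPase sums of both H groups (4317 to 5244 TPM) lie above those of all L libraries (1684 to 3971 TPM), whereas the hydrolase sums of KA_H (1438 to 2177 TPM) fall within the range of the L libraries (1283 to 3608 TPM) and those of APOE_H (3804 to 5762 TPM) lie above it.

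Across single genes, 28 of the 37 had their highest group mean in APOE_H, where 25.3% of all tested rows had theirs. In 12 genes each APOE_H library lay above each of the 12 other libraries (32.4%, against 3.66% of all tested rows). These were the hydrolase genes Hexa, Gaa, Gla, Gusb and Naglu, the activators Psap and Gm2a, Lamp1, Npc2, Laptm5, Grn and the pump subunit Atp6v1e1. KA_H held 1 such gene, Atp6v0e (0.44% of all tested rows). The lowest group mean fell in KA_L for 18 genes and in APOE_L for 15, counts for which the shares of all tested rows were not computed. The spread within groups was also smallest in H: the median SD of log2(TPM + 1) over the members was 0.39 in APOE_H and 0.41 in KA_H, against 0.66 in APOE_L, 0.95 in CTRL_L and 1.12 in KA_L. Over all tested rows these medians were 0.80, 0.98, 1.07, 1.26 and 1.18 in the same order.

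**Figure D2:**
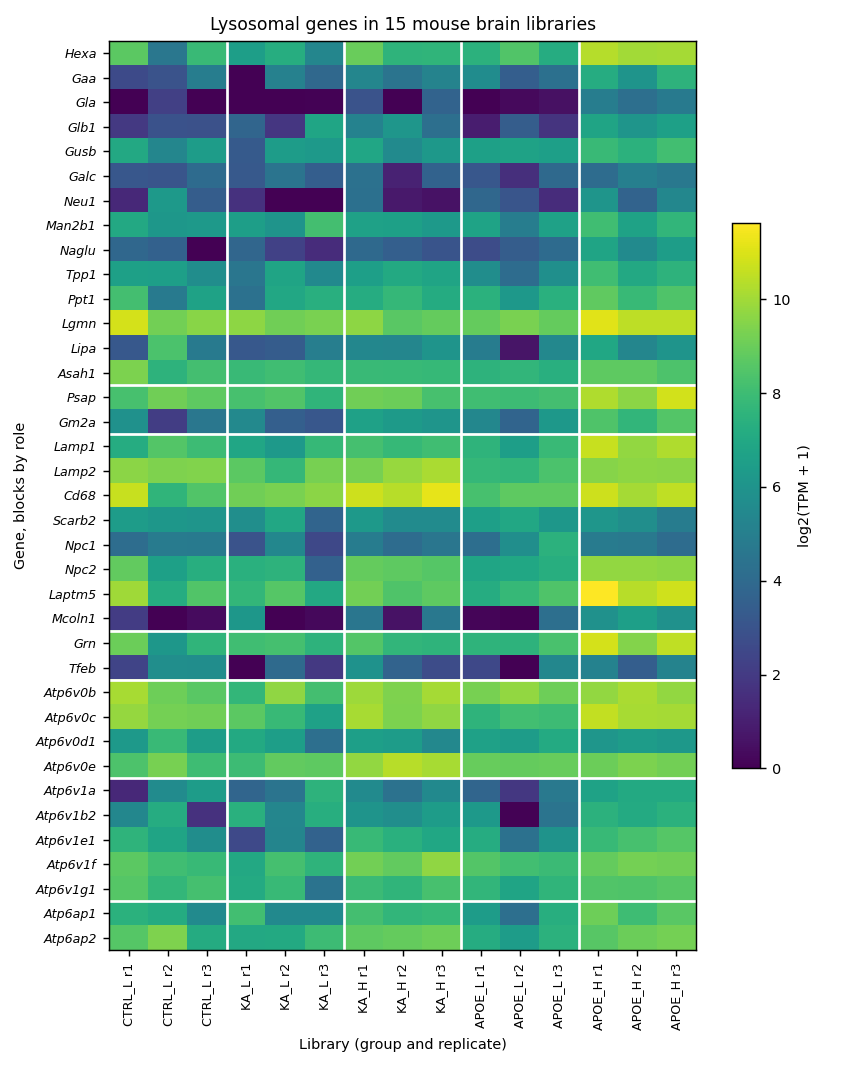
Level of each of the 37 lysosomal genes (y axis, in blocks by role) in each of the 15 libraries (x axis), as log2(TPM + 1) on the colour scale. The APOE_H columns are the brightest for 28 genes by group mean, and the dark cells are values listed at or near 0, such as Gla in the L libraries.

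The first comparison asked how H differed from L with KA and APOE weighted equally, 6 libraries against 6. Differences are of mean log2(TPM + 1), a scale that understates the change of low genes. Here 17 of the 37 genes were called higher in H and none lower (45.9%, limma with Benjamini-Hochberg adjusted p under 0.05), against 10.2% of all 17505 tested rows in either direction. They were 4 of 14 hydrolases (Hexa, Gla, Glb1 and Tpp1), both activators, 5 of 8 membrane and lipid transfer proteins (Lamp1, Lamp2, Cd68, Npc2 and Laptm5), neither regulator, and 6 of 11 pump subunits (Atp6v0c, Atp6v0e, Atp6v1e1, Atp6v1f, Atp6ap1 and Atp6ap2). The other 20 did not pass. The median log2 fold change was 1.70 over the members and 0.32 over all tested rows. Upper-quartile scaling, quantile normalization and rescaling without the assembled loci moved the median of all rows to 0.38, -0.14 and 0.50, and that of the members to 1.78, 1.52 and 1.60. The count was 11 without APOE_H replicate 3 and 10 with no filter on low values. The calls of Gla, Psap, Lamp1, Lamp2, Npc2, Laptm5, Atp6v0c, Atp6v1e1, Atp6v1f and Atp6ap2 held in each of the 20 alternative settings, those that left out 1 library included, whereas 7 were lost in at least 1.

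**Figure D3:**
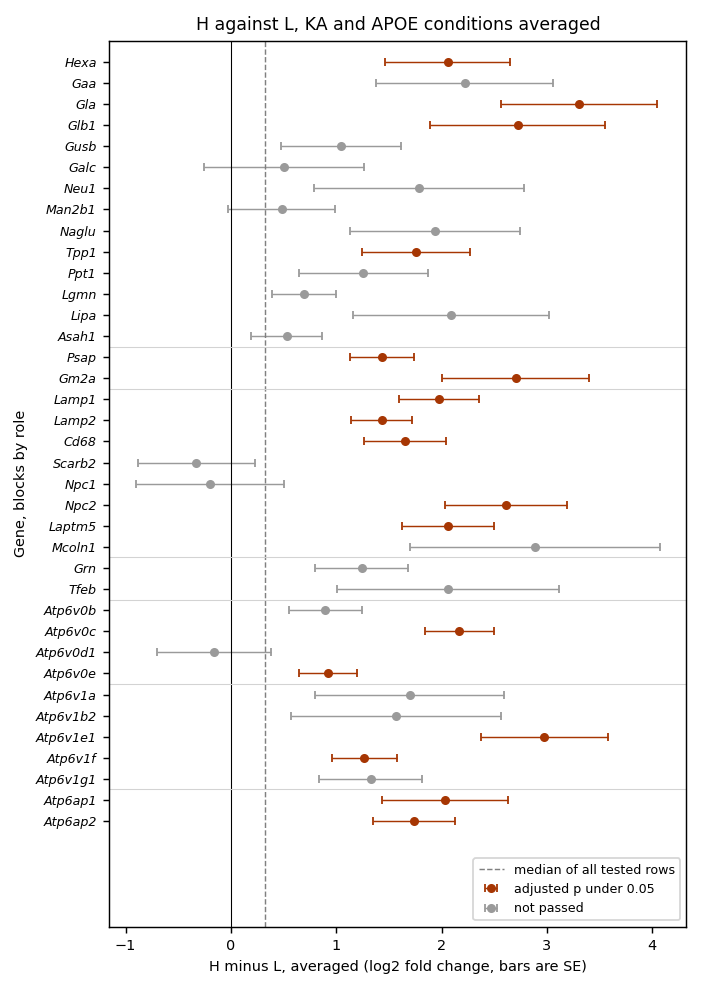
Log2 fold change of H against L averaged over the KA and APOE conditions (x axis, bars are SE) for each of the 37 genes (y axis, in blocks by role). The 17 genes past the threshold are in dark red. Of the 37 points 34 lie above 0, as do 58.5% of all tested rows, and the dashed line at 0.32 marks the median of all tested rows.

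Among the hydrolases, Hexa encodes the alpha subunit of beta-hexosaminidase, which cleaves GM2 ganglioside. It stood at 415, 23.3 and 234 TPM in CTRL_L, 90.5, 152 and 39.4 TPM in KA_L, 506, 189 and 197 TPM in KA_H, 178, 351 and 148 TPM in APOE_L, and 1305, 1028 and 1084 TPM in APOE_H. The APOE_H values lay 2-fold or more above every other library. H exceeded L in the averaged comparison (a log2 difference of 2.06 with SE 0.59, limma adjusted p = 0.0362), a call lost in 10 of 20 alternative settings. Gla encodes alpha-galactosidase A, which removes terminal galactose from glycolipids. It was listed at 0, 3.57 and 0 TPM in CTRL_L, 0.02, 0 and 0.04 TPM in KA_L, 6.90, 0.03 and 12.02 TPM in KA_H, 0, 0.23 and 0.43 TPM in APOE_L, and 29.6, 18.3 and 26.2 TPM in APOE_H. The APOE_H values exceeded every other library, the highest of which was at 12.02 TPM, and 8 of the 9 L libraries were under 1 TPM. The averaged difference was called (a log2 difference of 3.30 with SE 0.74, limma adjusted p = 0.00982), and so was that within APOE (a log2 difference of 4.39 with SE 1.05, limma adjusted p = 0.0213). With so many values near 0 the fitted size depends on the pseudocount, and the averaged difference ran from 2.82 to 5.39 over the 20 alternative settings. Its promoter stretch, printed above, held the longer E-box form at both capitals.

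Glb1, encoding beta-galactosidase, stood at 2.80, 6.52 and 6.46 TPM in CTRL_L, 12.96, 2.61 and 113 TPM in KA_L, 34.5, 67.3 and 18.1 TPM in KA_H, 0.93, 9.80 and 2.38 TPM in APOE_L, and 110.3, 65.3 and 97.1 TPM in APOE_H. KA_L replicate 3, at 113 TPM, was above all 3 APOE_H values. Glb1 was called higher in APOE_H than in APOE_L (a log2 difference of 4.44 with SE 1.17, limma adjusted p = 0.0334), and its averaged call (a log2 difference of 2.72 with SE 0.83, limma adjusted p = 0.0459) was lost in 14 of 20 settings. Tpp1 encodes tripeptidyl peptidase 1, which trims tripeptides from protein ends. It stood at 96.2, 94.9 and 51.9 TPM in CTRL_L, 22.5, 110.3 and 45.3 TPM in KA_L, 93.4, 133 and 110.0 TPM in KA_H, 51.4, 16.1 and 54.0 TPM in APOE_L, and 266, 129.5 and 181 TPM in APOE_H. It was called in the averaged comparison (a log2 difference of 1.76 with SE 0.52, limma adjusted p = 0.0395), with overlap between H and L, and that call was lost in 11 of 20 settings. Lgmn, encoding the asparaginyl endopeptidase legumain, was the hydrolase gene with the highest mean level. It was measured at 1863, 575 and 757 TPM in CTRL_L, 806, 546 and 619 TPM in KA_L, 807, 397 and 471 TPM in KA_H, 476, 622 and 464 TPM in APOE_L, and 2222, 1428 and 1403 TPM in APOE_H. KA_H and APOE_L held its lowest group means, and CTRL_L replicate 1 exceeded 2 of the APOE_H libraries. Lgmn was called higher in APOE_H than in APOE_L (a log2 difference of 1.67 with SE 0.42, limma adjusted p = 0.0285), whereas its difference between KA_H and KA_L was -0.28 (SE 0.42, adjusted p = 0.799, limma).

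Several hydrolase genes were low and were listed at 0 in some libraries. Gaa, which encodes the acid alpha-glucosidase that degrades glycogen, was at 5.05, 6.91 and 29.9 TPM in CTRL_L, 0, 33.97 and 14.1 TPM in KA_L, 39.9, 21.4 and 36.4 TPM in KA_H, 49.1, 10.1 and 18.8 TPM in APOE_L, and 145, 63.9 and 182 TPM in APOE_H. Each APOE_H value exceeded all others, but no comparison passed for Gaa (smallest adjusted p = 0.106, limma). Naglu, an enzyme of heparan sulfate breakdown, was at 13.8, 11.2 and 0 TPM in CTRL_L, 13.2, 3.79 and 1.74 TPM in KA_L, 14.6, 10.4 and 7.16 TPM in KA_H, 5.42, 9.69 and 16.0 TPM in APOE_L, and 112, 46.3 and 88.7 TPM in APOE_H. Here too APOE_H stood apart, with 46.3 TPM or more against at most 16.0 TPM elsewhere, and again no comparison passed (smallest adjusted p = 0.137, limma). Neu1, a sialidase, was at 1.57, 76.9 and 9.68 TPM in CTRL_L, 2.20, 0 and 0 TPM in KA_L, 18.9, 0.73 and 0.48 TPM in KA_H, 13.8, 7.40 and 1.76 TPM in APOE_L, and 65.8, 11.9 and 41.4 TPM in APOE_H. Its groups overlapped widely.

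The remaining hydrolases did not pass in any comparison. Gusb, encoding beta-glucuronidase, was at 229 ± 51.7 TPM in APOE_H (mean ± SD, n = 3) and between 55.9 and 97.9 TPM on average in the other groups. Ppt1, the palmitoyl-protein thioesterase, stood at 341 ± 109.5 TPM in APOE_H and 166 ± 40.3 TPM in KA_H. Asah1, the acid ceramidase, was highest in CTRL_L replicate 1 at 646 TPM, with 228 ± 8.94 TPM in KA_H and 399 ± 54.6 TPM in APOE_H. Man2b1, an alpha-mannosidase, was highest in 1 KA_L library (287 TPM). Galc, which degrades galactosylceramide of myelin, reached at most 31.7 TPM. Lipa, the lysosomal acid lipase that frees cholesterol and fatty acids from their esters, was highest in CTRL_L replicate 2 at 321 TPM and at 0.58 to 119 TPM elsewhere.

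Of the activators, Psap encodes prosaposin, the precursor of the saposins, which present sphingolipids to hydrolases. It stood at 307, 545 and 429 TPM in CTRL_L, 300.2, 353 and 196 TPM in KA_L, 549, 520.4 and 307 TPM in KA_H, 263, 249 and 284 TPM in APOE_L, and 1218, 786 and 1822 TPM in APOE_H. All APOE_H values were above all other libraries. Psap was called in the averaged comparison (a log2 difference of 1.43 with SE 0.30, limma adjusted p = 0.00723) and within APOE (a log2 difference of 2.18 with SE 0.43, limma adjusted p = 0.00832). Gm2a, the GM2 activator that works with beta-hexosaminidase, was at 57.3, 3.26 and 23.4 TPM in CTRL_L, 43.2, 10.6 and 7.79 TPM in KA_L, 101, 80.2 and 67.1 TPM in KA_H, 40.8, 12.5 and 72.4 TPM in APOE_L, and 345, 199.5 and 364 TPM in APOE_H. Both H groups lay above KA_L, and APOE_H lay above every other library. The averaged difference was called (a log2 difference of 2.70 with SE 0.70, limma adjusted p = 0.0207).

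Among membrane proteins, Lamp1 and Lamp2, the main glycoproteins lining the lysosomal membrane, differed in their pattern. Lamp1 stood at 148, 367 and 251 TPM in CTRL_L, 119, 76.2 and 218 TPM in KA_L, 298, 218 and 270.3 TPM in KA_H, 189, 91.0 and 233 TPM in APOE_L, and 1627, 857 and 1221 TPM in APOE_H. APOE_H stood at 857 TPM or more against at most 367 TPM in the other libraries, whereas KA_H lay within the range of CTRL_L. Lamp1 had the smallest adjusted p of the 37 genes within APOE (a log2 difference of 2.90 with SE 0.54, limma adjusted p = 0.00629), and this call held in each of 14 alternative settings. Lamp2 stood at 777, 659 and 684 TPM in CTRL_L, 418, 217 and 607 TPM in KA_L, 601, 905 and 1132 TPM in KA_H, 211, 203 and 319.8 TPM in APOE_L, and 742, 813 and 788 TPM in APOE_H. Its levels in CTRL_L, KA_H and APOE_H overlapped, and the APOE_L values lay below all of these. The averaged H against L difference was called (a log2 difference of 1.43 with SE 0.29, limma adjusted p = 0.00569), as was that within APOE (a log2 difference of 1.70 with SE 0.41, limma adjusted p = 0.0221).

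Cd68, a macrophage and microglial lysosomal glycoprotein, had the highest mean level of the 37 genes. It was at 1626, 193 and 356 TPM in CTRL_L, 549, 625 and 772 TPM in KA_L, 1729, 1339 and 2368 TPM in KA_H, 299, 435 and 432 TPM in APOE_L, and 1703, 1068 and 1471 TPM in APOE_H. Both H groups exceeded KA_L and APOE_L without overlap, and CTRL_L replicate 1 reached the H range. The averaged difference was called (a log2 difference of 1.65 with SE 0.39, limma adjusted p = 0.0133). Laptm5, a lysosomal transmembrane protein of blood-derived and microglial cells, was at 1004, 148 and 357 TPM in CTRL_L, 208, 374 and 129.8 TPM in KA_L, 572, 342 and 426 TPM in KA_H, 147, 219 and 348 TPM in APOE_L, and 3176, 1325 and 1768 TPM in APOE_H. APOE_H lay above all other libraries, with CTRL_L replicate 1 next. Laptm5 was called in the averaged comparison (a log2 difference of 2.06 with SE 0.44, limma adjusted p = 0.00727) and within APOE (a log2 difference of 3.12 with SE 0.62, limma adjusted p = 0.00851).

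Of the cholesterol transfer proteins, Npc2 was called and Npc1 was not. Npc2 is the soluble carrier that hands cholesterol to the membrane protein Npc1 for export. Npc2 stood at 458, 95.8 and 158 TPM in CTRL_L, 164, 184 and 11.3 TPM in KA_L, 468, 423 and 373 TPM in KA_H, 114, 122 and 158 TPM in APOE_L, and 848, 857 and 817 TPM in APOE_H. Its H and L values did not overlap within either condition, and the averaged difference was called (a log2 difference of 2.61 with SE 0.58, limma adjusted p = 0.00919). Npc1 was at 22.2 ± 6.05 TPM in KA_H and 22.9 ± 6.03 TPM in APOE_H (mean ± SD, n = 3), was highest in APOE_L replicate 3 at 179 TPM, and was not called (a log2 difference of -0.20 with SE 0.70, limma adjusted p = 0.89). Scarb2, the membrane carrier of glucocerebrosidase, was likewise not called (a log2 difference of -0.33 with SE 0.56, limma adjusted p = 0.757). Mcoln1, a calcium channel of the lysosomal membrane, was at 3.20, 0 and 0.28 TPM in CTRL_L, 71.4, 0 and 0.18 TPM in KA_L, 22.6, 0.49 and 23.9 TPM in KA_H, 0.10, 0.02 and 17.9 TPM in APOE_L, and 58.9, 95.1 and 57.9 TPM in APOE_H. It was under 1 TPM in 7 libraries and reached 57.9 TPM or more in each APOE_H library and in 1 KA_L library, and no comparison passed (smallest adjusted p = 0.112, limma).

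The regulators were Grn and Tfeb. Grn encodes progranulin, a secreted and lysosomal protein made by microglia. It stood at 524, 70.4 and 192 TPM in CTRL_L, 267, 293 and 181 TPM in KA_L, 367, 199 and 189 TPM in KA_H, 187, 185 and 309.9 TPM in APOE_L, and 1892, 713 and 1446 TPM in APOE_H. KA_H overlapped KA_L and was not called (a log2 difference of -0.01 with SE 0.62), and APOE_H lay above all others and was called against APOE_L (a log2 difference of 2.50 with SE 0.62, limma adjusted p = 0.0266). Tfeb was listed at 4.26, 53.0 and 51.1 TPM in CTRL_L, 0, 15.4 and 2.76 TPM in KA_L, 59.95, 12.04 and 5.48 TPM in KA_H, 4.73, 0 and 40.5 TPM in APOE_L, and 34.8, 10.2 and 36.3 TPM in APOE_H. Its groups overlapped throughout and it was not called in any comparison (smallest adjusted p = 0.226, limma).

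**Figure D4:**
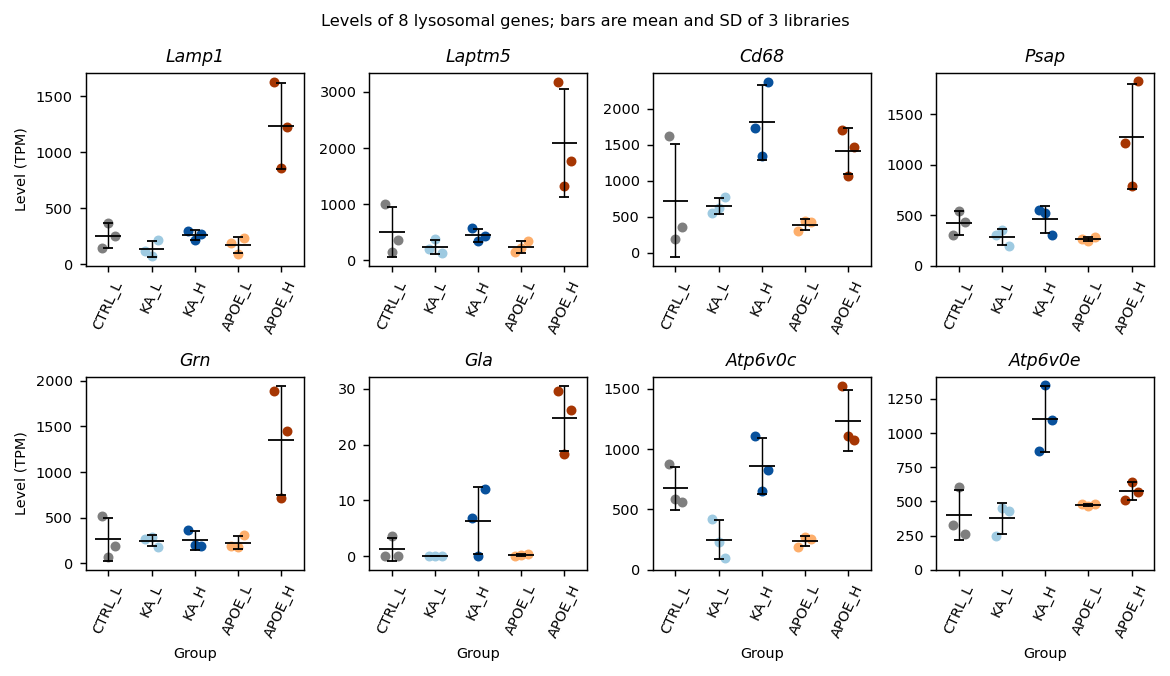
Level in TPM (y axis) of 8 lysosomal genes in the 5 groups (x axis), with 1 point per library and bars for mean and SD of 3 libraries. Lamp1, Laptm5, Psap, Grn and Gla stand highest in all 3 APOE_H libraries, Cd68 and Atp6v0c are high in both H groups, and Atp6v0e is highest in the 3 KA_H libraries (869 to 1353 TPM).

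In the proton pump, Atp6v0c encodes the main proteolipid of the rotating V0 ring. It stood at 877, 585 and 559 TPM in CTRL_L, 422, 228 and 99.2 TPM in KA_L, 1106, 651 and 825 TPM in KA_H, 191, 275 and 254 TPM in APOE_L, and 1525, 1104 and 1078 TPM in APOE_H. The 6 H libraries lay above the 6 L libraries of KA and APOE, and CTRL_L lay between KA_L and APOE_H. Of the 37 genes it had the smallest adjusted p in the averaged comparison (a log2 difference of 2.17 with SE 0.33, limma adjusted p = 0.0008), and it was called within KA (a log2 difference of 1.98 with SE 0.47, limma adjusted p = 0.0453) and within APOE (a log2 difference of 2.36 with SE 0.47, limma adjusted p = 0.00851). Atp6v0b, another proteolipid of the ring, was at 1118, 543 and 401 TPM in CTRL_L, 210.2, 832 and 280.4 TPM in KA_L, 978, 658 and 1065 TPM in KA_H, 614, 859 and 527 TPM in APOE_L, and 849, 1138 and 867 TPM in APOE_H. It was among the 5 most abundant members, and no comparison passed for it (a log2 difference of 0.90 with SE 0.35, limma adjusted p = 0.111 in the averaged comparison).

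Atp6v0e, a small membrane subunit of V0, showed a pattern of its own. It stood at 331, 607 and 261 TPM in CTRL_L, 248, 454 and 433 TPM in KA_L, 869, 1353 and 1096 TPM in KA_H, 479, 465 and 480.1 TPM in APOE_L, and 510.4, 644 and 571 TPM in APOE_H. KA_H lay above the 12 other libraries. The averaged difference was called (a log2 difference of 0.92 with SE 0.28, limma adjusted p = 0.0446), but this call was lost in 14 of 20 alternative settings, and KA_H against KA_L alone narrowly missed (a log2 difference of 1.57 with SE 0.39, limma adjusted p = 0.0574). Atp6v0d1, which couples V0 to the central stalk, was not called (log2 fold change -0.16, SE 0.54, adjusted p = 0.886, limma) and its promoter stretch holds the same 8 letters as that of Atp6v0e.

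In the V1 sector, Atp6v1e1 encodes a subunit of the peripheral stalk. It was at 190.1, 111 and 50.6 TPM in CTRL_L, 4.88, 38.1 and 11.4 TPM in KA_L, 229, 167 and 121 TPM in KA_H, 146, 19.3 and 61.0 TPM in APOE_L, and 231, 300.03 and 381 TPM in APOE_H. KA_L was lowest and APOE_H was highest, and APOE_L replicate 1 overlapped KA_H. Atp6v1e1 was called in the averaged comparison (a log2 difference of 2.98 with SE 0.60, limma adjusted p = 0.00545) and within KA (a log2 difference of 3.56 with SE 0.85, limma adjusted p = 0.0463). Atp6v1f, a subunit of the central stalk, was at 413, 267 and 231 TPM in CTRL_L, 127, 289 and 187 TPM in KA_L, 563, 463 and 824 TPM in KA_H, 365, 271 and 245 TPM in APOE_L, and 473, 582 and 555 TPM in APOE_H. Each H library was above every KA_L and APOE_L library, and the averaged difference was called (a log2 difference of 1.27 with SE 0.31, limma adjusted p = 0.0159). The catalytic subunit Atp6v1a and its partner Atp6v1b2 were not called and stood at 123 ± 17.2 and 162 ± 23.1 TPM in APOE_H (mean ± SD, n = 3), against 37.2 ± 14.9 and 67.5 ± 17.1 TPM in KA_H. Atp6v1g1, another stalk subunit, ran from 20.4 to 391 TPM and was not called.

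The accessory subunits Atp6ap1 and Atp6ap2 assist assembly of the pump, and Atp6ap2 is also known as the prorenin receptor. Atp6ap1 stood at 172, 142 and 46.4 TPM in CTRL_L, 277, 44.4 and 44.3 TPM in KA_L, 281, 204 and 221 TPM in KA_H, 86.4, 18.0 and 157 TPM in APOE_L, and 532, 257 and 404 TPM in APOE_H. KA_L replicate 1 reached the KA_H range. Its averaged call (a log2 difference of 2.04 with SE 0.60, limma adjusted p = 0.0393) was lost in 10 of 20 settings. Atp6ap2 was at 375, 674 and 141 TPM in CTRL_L, 127, 132 and 249 TPM in KA_L, 429, 467 and 541 TPM in KA_H, 147, 84.5 and 176 TPM in APOE_L, and 393, 519 and 586 TPM in APOE_H. Within both conditions H and L did not overlap, and CTRL_L, at 141 to 674 TPM, overlapped both letters. The averaged difference was called (a log2 difference of 1.74 with SE 0.39, limma adjusted p = 0.00996).

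Taken by condition, KA_H exceeded KA_L with a call in 2 of 37 genes, Atp6v0c and Atp6v1e1 (5.41%, against 1.49% of all tested rows). The median log2 fold change was 1.16 over the members and 0.11 over all rows. In 11 genes the KA_H values lay wholly above those of KA_L (29.7%, against 10.5% of all tested rows). The count of 2 rests on few libraries: it was 1 without KA_L replicate 1 and 0 without KA_L replicate 3 or any KA_H replicate, 0 when the 6 libraries were fitted alone and 4 with upper-quartile scaling. No hydrolase was called here. APOE_H exceeded APOE_L with a call in 10 of 37 genes (27.0%, against 6.15%), namely Gla, Glb1, Lgmn, Psap, Lamp1, Lamp2, Laptm5, Grn, Atp6v0c and Atp6ap2. The median was 2.24 over the members and 0.54 over all rows, and 29 genes had APOE_H wholly above APOE_L (78.4%, against 20.1%). All 14 hydrolases had a positive fold change here, as did 60.3% of all tested rows. Scarb2 and Atp6v0d1 were wholly lower in APOE_H without a call (5.41%), and the share of all tested rows in that direction was not counted. The count was 4, 5, 4, 6 and 3 without APOE_L replicate 1, APOE_L replicate 2, APOE_H replicate 1, APOE_H replicate 2 and APOE_H replicate 3, and 16 when the 6 libraries were fitted alone. Over 14 alternative settings the calls of Lamp1, Laptm5 and Atp6v0c were kept throughout, that of Psap was lost in 1, and those of the other 6 were lost in 5 to 11.

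**Figure D5:**
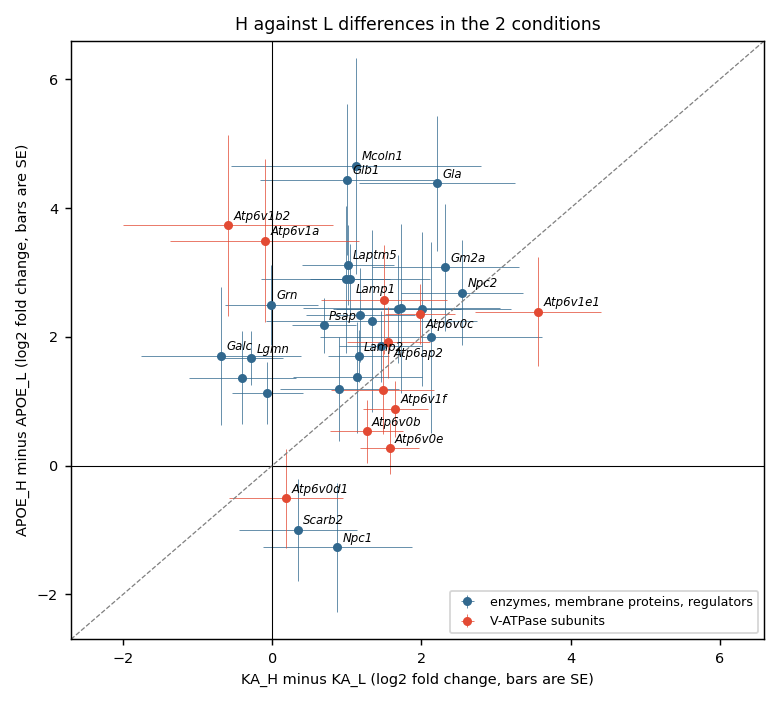
Log2 fold change of KA_H against KA_L (x axis) and of APOE_H against APOE_L (y axis) for the 37 genes, with bars for SE and a dashed line where both are equal. The 2 comparisons share no library; Lamp1, Laptm5, Grn and Lgmn lie above the line, and Atp6v0e, Atp6v0b and Atp6v1f lie below it.

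Whether the H against L difference itself differed between the conditions was asked with the interaction term. None of the 37 genes passed (limma, against 0.0457% of all tested rows), and 7 had an unadjusted p under 0.05 (18.9%, against 8.32%). Of these 7, 6 were positive (Lgmn, Grn, Psap, Lamp1, Laptm5 and Atp6v1b2), that is, with a larger difference in the APOE condition, and Atp6v0e was negative. Lgmn had an interaction of 1.95 (SE 0.60, adjusted p = 0.39, limma), Grn of 2.51 (adjusted p = 0.482, limma), Lamp1 of 1.86 (adjusted p = 0.533, limma) and Atp6v0e of -1.30 (adjusted p = 0.544, limma). In 2 genes, Asah1 and Atp6v0e, APOE and KA did not overlap and stood in opposite order in L and H (5.41%, against 1.15% of all tested rows). The different sums of hydrolases in KA_H and APOE_H are therefore a description, not a tested difference.

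KA_L was set against CTRL_L to ask how lysosomal transcripts stood after KA where the letter was the same. None of the 37 genes passed (limma, against 0.571% of all tested rows), and 5 had an unadjusted p under 0.05 (13.5%, against 11.1%). The median log2 fold change was -0.67 over the members and 0.00 over all rows. In 3 genes, Atp6v0c, Atp6v1e1 and Lamp2, KA_L lay wholly below CTRL_L (8.11%, against 4.54%). The smallest adjusted p was that of Atp6v0c (a log2 difference of -1.63 with SE 0.47, limma adjusted p = 0.165). CTRL_L was heterogeneous: replicate 1 had a member sum of 12589 TPM, against 7243 and 6438 TPM in the others, with a microglia marker sum of 39238 TPM against 12291 and 16204 TPM. Its choroid plexus marker sum was the lowest of the 3, at 139.5 TPM against 39534 and 24200 TPM. Without that library still none of the 37 passed.

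KA_H was also set against CTRL_L, where treatment and letter change together and cannot be told apart. None of the 37 genes passed (limma, against 0.377% of all tested rows), with 5 at an unadjusted p under 0.05 (13.5%, against 10.5%). Atp6v0e came closest (a log2 difference of 1.54 with SE 0.39, limma adjusted p = 0.12), with each KA_H library above each CTRL_L library, and Cd68 followed (a log2 difference of 1.87 with SE 0.55, limma adjusted p = 0.212). The count was 1 without CTRL_L replicate 1 and 1 with upper-quartile scaling. These KA comparisons share the CTRL_L or KA_L libraries with each other, so their values are not independent.

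The APOE condition, whose nature is not given, was also compared with KA alone. In the L libraries none of the 37 genes passed (limma, against 0.0457%), 3 had an unadjusted p under 0.05 (8.11%, against 7.84%), and the median log2 fold change was 0.24 over the members and -0.04 over all rows. In the H libraries none passed either (limma, against 0.531%), although 10 had an unadjusted p under 0.05 (27.0%, against 8.63%). In 20 of the 37 genes APOE_H lay wholly above KA_H (54.1%, against 14.6% of all tested rows), and the median was 1.00 over the members and 0.25 over all rows. These 20 included 9 of 14 hydrolases, both activators, Lamp1, Npc2, Laptm5, Mcoln1, Grn, and 4 of 5 V1 subunits but no V0 or accessory subunit. The smallest adjusted p-values were those of Lamp1 (a log2 difference of 2.19 with SE 0.54, limma adjusted p = 0.107), Lgmn (a log2 difference of 1.63 with SE 0.42, limma adjusted p = 0.151) and Grn (a log2 difference of 2.37 with SE 0.62, limma adjusted p = 0.153). Atp6v0e was wholly lower in APOE_H (log2 fold change -0.93, adjusted p = 0.518, limma). Averaged over both letters none passed (limma, against 0.0171%), with 10 at an unadjusted p under 0.05 (27.0%, against 8.23%) and a median of 0.58 over the members against 0.07 over all rows. Upper-quartile scaling moved the median of all rows between APOE_H and KA_H from 0.25 to 0.01 and that of the members from 1.00 to 0.64.

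A further 56 lysosomal genes outside the 37 were listed for context, of which 51 were tested. Averaged over both conditions 7 were higher in H and 1 was lower (15.7%, against 10.2% of all tested rows), with a median log2 fold change of 1.23 against 0.32 over all rows. Cd63, a tetraspanin of late endosomes, stood at 394, 632 and 322 TPM in CTRL_L, 288, 441 and 246 TPM in KA_L, 1400.0, 1393 and 1700.3 TPM in KA_H, 764, 248 and 383 TPM in APOE_L, and 1943, 2251 and 2257 TPM in APOE_H. H and L of KA and APOE did not overlap, and Cd63 was called in the averaged comparison (a log2 difference of 2.30 with SE 0.29, limma adjusted p = 0.000237), within KA (adjusted p = 0.0141) and within APOE (adjusted p = 0.00506). Among the others higher in H were Gpnmb, a glycoprotein of lipid-loaded macrophages (log2 fold change 5.07), Smpd1, the acid sphingomyelinase (3.98), and Lamtor3 and Lamtor5, scaffolds of nutrient signalling on lysosomes (3.57 and 2.61), with adjusted p from 0.00643 to 0.0444 by limma. Mfsd8, a lysosomal membrane transporter named after its values were seen, was the gene that was lower (a log2 difference of -2.60 with SE 0.79, limma adjusted p = 0.0459). It was listed at 24.8, 51.5 and 17.6 TPM in CTRL_L, 2.78, 1.79 and 0.10 TPM in KA_L, 2.17, 0 and 1.12 TPM in KA_H, 33.1, 87.2 and 63.1 TPM in APOE_L, and 5.77, 0 and 0 TPM in APOE_H. The L values of APOE lay far above the H values, while those of KA overlapped. Within APOE 4 were higher (among them Cd63, Gpnmb and Atp6v1c1, a V1 subunit) and 1 was lower (Mfsd8), and within KA 1 was higher (Cd63). These shares, 9.8% and 1.96%, lay near the 6.15% and 1.49% of all tested rows. In the other comparisons none of the 51 passed (limma).

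Measured against the microglia markers, the members did not keep a fixed share. The member sum divided by the microglia marker sum was 0.669 to 0.897 in APOE_H, 0.376 to 0.541 in KA_H, 0.253 to 0.284 in APOE_L, 0.326 to 0.479 in KA_L and 0.321 to 0.589 in CTRL_L. The microglia marker sum itself was 21636 to 32219 TPM in APOE_H and 21017 to 21207 TPM in APOE_L, while the member sums of these groups, 15850 to 22724 TPM and 5321 to 6024 TPM, did not overlap. Markers of other cell types also differed in level between groups. All 8 border macrophage and monocyte markers passed the filter, and their summed level was 208.8 to 655 TPM in H, 9.97 to 103 TPM in KA_L, 108 to 423.5 TPM in APOE_L and 1.16 to 105 TPM in CTRL_L. The single markers disagreed. Pf4, Ms4a7, Ccr2 and Cd163 had their highest group mean in KA_H, Mrc1, F13a1 and Ly6c2 in APOE_L, and Lyve1 in KA_L. Neutrophil markers, of which 6 of 8 passed, summed to 336 to 1293 TPM in KA_H, 0.02 to 1193 TPM in APOE_H and at most 0.39 TPM in the L libraries. The high APOE_H sum was that of replicate 2 alone, and the median of that group was 5.64 TPM. S100a8, for example, was at 485 TPM in APOE_H replicate 2 and listed at 0 in replicates 1 and 3. Astrocyte markers, of which 5 of 10 passed, summed to less in H (43.9 to 92.3 TPM) than in L (133 to 335 TPM). That sum leans on Slc1a3, the only astrocyte marker at 1 TPM or more in each library. Slc1a3 was at 33.5 to 76.0 TPM in H and 41.5 to 157 TPM in L, with overlap. Gfap, Aldh1l1 and S100b had their highest group mean in an H group, and the other astrocyte markers in an L group. The sums of oligodendrocyte, endothelial and red blood cell markers overlapped between the H and L libraries. The part of these cell types in the lysosomal differences was not tested.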

How the data were processed

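RNA-seq of 15 libraries was analysed from 1 table of TPM values, deposited by the authors without counts, so the depth of each library and the counting error of each value are unknown. Alignment was with STAR to GRCh38, a human build, per the submitters' processing notes, although the rows carry mouse Ensembl identifiers. The version, the quantifier, the annotation release and any use of strand are not given in the sources used here, so reads of overlapping genes, antisense genes or near-identical copies cannot be told apart. The table held 55416 Ensembl rows, of which 52083 matched a symbol, and 10548 assembled loci without a gene name.

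Rows with at least 1 TPM in at least 3 libraries (17505) were transformed to log2(TPM + 1) and fitted with limma 3.58.1 in R 4.3.3 (trended empirical Bayes, 5 group means, all libraries in 1 fit, 10 residual degrees of freedom). The 9 contrasts were adjusted by Benjamini-Hochberg over all tested rows, each on its own, at 0.05. The procedure was tested on simulated data with normal noise of the same spread in each group. That test does not cover values listed at 0 or a spread that differs between groups, as in these data. Alternatives were a pseudocount of 0.1, no filter, a filter of 5 TPM, upper-quartile scaling, quantile normalization, removal of assembled loci, only the groups compared, a replicate block and each library left out. Named with values in every library were members called in any contrast, members listed at 0 and the 5 with the highest mean. Of the further lysosomal genes up to 6 called in the averaged contrast were named, of which 1 is not reported here, with library values only for Cd63 and, outside this rule, Mfsd8. The members and lists were chosen with earlier results of these data known. No library was left out, and no 2 libraries were identical.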

Additional observations from a re-analysis of the deposited data

Results flagged for a closer look

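In 2 genes the APOE and KA conditions stood apart in opposite directions in L and in H, without overlap of the groups (5.41% of the members, against 1.15% of all tested rows). Asah1, the acid ceramidase, was lower in each APOE_L library (160.3 to 203 TPM) than in each KA_L library (213 to 271 TPM), and higher in each APOE_H library (336 to 433 TPM) than in each KA_H library (219 to 237 TPM). Its interaction was 1.19 on the log2 scale, and limma's test of that difference did not pass (adjusted p = 0.682). Atp6v0e, a V0 subunit, was higher in each APOE_L library (465 to 480.1 TPM) than in each KA_L library (248 to 454 TPM), and lower in each APOE_H library (510.4 to 644 TPM) than in each KA_H library (869 to 1353 TPM). Its interaction was -1.30, which did not pass either (limma adjusted p = 0.544).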

How the results depend on the processing

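Counts of called members moved by over 1.5 times in 9 of 14 settings within KA, 7 of 14 within APOE, 2 of 14 for KA_H against CTRL_L and 2 of 20 in the averaged comparison of H and L, and in none for the other comparisons. With no filter on low values, which adds rows to the adjustment, the counts were 10 in the averaged comparison (17 in the report), 5 within APOE (10) and 0 within KA (2). With only the groups compared they were 16 within APOE and 0 within KA. Upper-quartile scaling gave 4 within KA and 1 for KA_H against CTRL_L (0). Leaving out 1 library gave 11 to 18 in the averaged comparison, 3 to 7 within APOE, 0 to 2 within KA and 0 to 1 for KA_H against CTRL_L, and 0 in the other comparisons. The cause was not tested. None of the 29 calls of single genes changed direction in these settings. Of these calls, the alternatives other than leaving out 1 library lost between 0 (5 TPM filter) and 14 (no filter).

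With the replicate number as a block the counts were 15, 9 and 1 (averaged, APOE and KA) and 0 elsewhere, and 4 of the 29 calls were lost. The labels do not say what a number marks. Over 30 pairs of same-numbered libraries the correlation of deviations from the group means ran from -0.03 to 0.04. Of these pairs, 15 of 30 correlated best with their own number. Such values cannot show whether same-numbered libraries shared an animal or a batch.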
